A study of Mus musculus with 16 samples.

Results

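The cytosolic ribosomal protein genes were followed in activated B cells of the mouse spleen, with and without miR-221 and miR-222. They were taken as the protein-coding rows of the deposited gene table whose symbol begins with Rpl or Rps, without the ribosomal S6 kinases, symbols marked as pseudogenes, and Rps19bp1. The rule uses names only and found 85 genes, 52 of the large and 33 of the small subunit, among 43432 gene rows of which 21678 are protein-coding. They lie on 19 chromosomes, and their annotated spans have a median of 3243 nt (374 to 25164 nt).

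The study measured RNA by RNA-seq and Ago2-bound RNA by HITS-CLIP in B cells from KO mice, which lack miR-221 and miR-222, and from Flox mice, whose locus is floxed, named WT in the deposited table. Each assay had 4 KO and 4 Flox libraries, 16 samples in all. All cells were splenic B cells of strain C57B6L/J, and all were stimulated in culture for 4 days by an antibody to CD40 at 500 ng/ml, IL-4 at 25 ng/ml and IL-21 at 10 ng/ml. A Cre driver, the age of the mice and whether replicates came from separate mice are not given in the sources used here. The p-values below therefore cover only the variation among these libraries, which may be technical.

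A ribosome is built from a small subunit, which reads the mRNA, and a large subunit, which joins amino acids, and each ribosomal protein is normally present in 1 copy per ribosome apart from the acidic stalk proteins. Their genes are among the most actively transcribed in dividing cells, since lymphocytes that start to divide must enlarge their stock of ribosomes. Many of their mRNAs begin with a terminal oligopyrimidine (TOP) tract, a C followed by a run of pyrimidines, through which mTOR and Larp1 control their translation and stability. Several of these genes host small nucleolar RNAs (snoRNAs), which guide the modification of ribosomal RNA, in their introns, and many have processed pseudogenes, copies made from their mRNAs.

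The miRNAs removed in the KO mice share a seed, shown in capitals as bases 2 to 8 of the mature sequence from RefSeq (GRCm38.p6, minus strand of chromosome X). miR-221-3p lies at chrX:19146307-19146329 and miR-222-3p at chrX:19146901-19146923.
miR-221-3p: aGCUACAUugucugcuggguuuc
miR-222-3p: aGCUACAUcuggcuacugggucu
Their rows in the RNA-seq table hold almost no reads. Mir221 was listed at 0 in all 4 KO libraries, and at 0, 0, 3.5 and 1.0 normalized counts in Flox 1 to 4, and Mir222 at 0 in all 8, so these rows do not check the genotype labels.

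RNA-seq depth was 22947689 to 39236132 reads in KO libraries and 25421025 to 39616596 reads in Flox libraries. Values are normalized counts, that is reads divided by 1 size factor per library, and they are not per transcript length, so the levels of different genes are not ranked here. B cell markers were present at a summed 89791 to 113053 normalized counts in KO libraries and 103342 to 108993 in Flox libraries, over 6 of 6 markers. No T cell marker (0 of 6) and no erythroid marker (0 of 5) reached a mean of 10, with Alas2, Hba-a1 and Hbb-bs at 0. Of the myeloid markers 2 of 6 did, summing to 70.5 to 102.9 in KO libraries and 47.0 to 91.4 in Flox libraries, with S100a8 and S100a9 at 0. Of the NK markers 1 of 3 did, summing to 157.8 to 205.8 in KO libraries and 93.9 to 138.4 in Flox libraries, with Ncr1 at 0, and the part of this difference in the results below was not tested.

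The library KO 3 stood apart in the ribosomal protein genes. It was the lowest of the 8 libraries for 61 of the 84 genes that could be tested (72.6%), against 26.1% of all 13091 tested genes. The ratio of large to small subunit reads was 1.95 in KO 3 and 1.45, 1.43 and 1.35 in KO 1, KO 2 and KO 4, against 1.43, 1.36, 1.32 and 1.31 in Flox 1 to 4. KO 3 also gave the highest share of mitochondrial reads, with 3.14, 2.24, 4.27 and 1.80% in KO 1 to 4, against 1.99, 2.06, 1.90 and 1.84% in Flox 1 to 4. The part of the mitochondrial share in the ribosomal protein values was not tested. The log2 fold changes printed with an error below are therefore followed by the value without KO 3 where that moved them by over 1.5 times or turned their sign. Over all tested genes KO 1 also lay far from the Flox libraries. On the first principal component, the main axis of variation with 33.5% of the variance, KO 1 to 4 lay at -38.0, -15.3, -35.6 and 7.5. Flox 1 to 4 lay at 14.5, 17.9, 26.5 and 22.6.

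Together the ribosomal protein genes took a smaller mean share of the reads in KO than in Flox B cells. The share was 3.58, 3.79, 2.48 and 3.88% in KO 1 to 4, with a mean of 3.43 ± 0.65% (SD, n = 4), and 3.60, 4.11, 4.49 and 4.54% in Flox 1 to 4, with a mean of 4.19 ± 0.43% (SD, n = 4). The groups overlapped, since KO 2 and KO 4 lay above Flox 1. Without KO 3 the KO mean was 3.75%. The large subunit genes made up 2.05 ± 0.28% of reads in KO and 2.40 ± 0.21% in Flox libraries, and the small subunit genes 1.38 ± 0.37% in KO and 1.78 ± 0.22% in Flox libraries (SD, n = 4 each). In such bulk samples fewer cells of a type and less RNA per cell cannot be told apart. As the members were chosen with these data known, no p-value is given for the summed share.

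**Figure D1:**
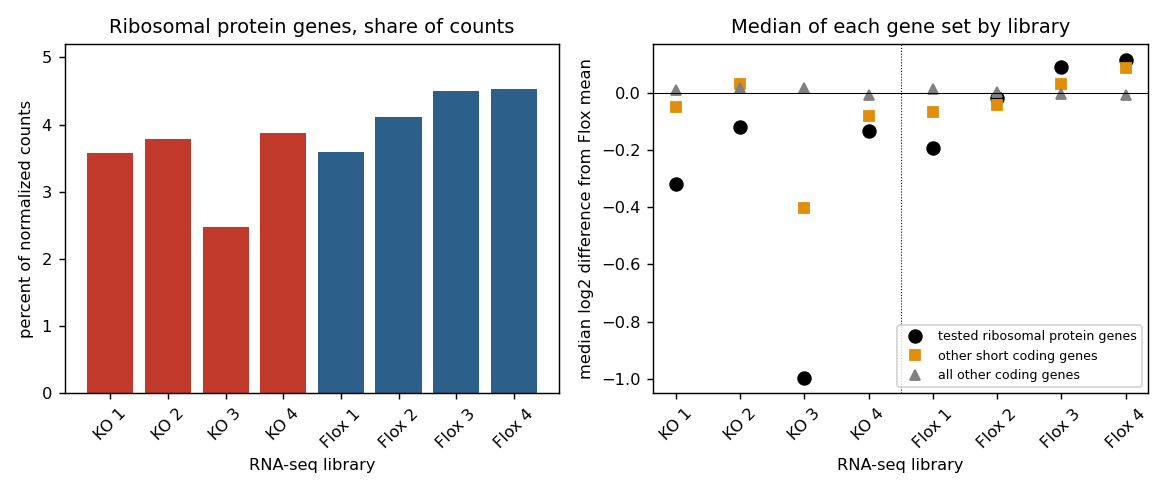
Left, the share of all normalized counts in the 85 ribosomal protein genes, in percent, for KO (red) and Flox (blue) libraries. Right, the median log2 difference from the Flox mean for the 84 tested ribosomal protein genes (circles), 1099 other short protein-coding genes (squares) and all other protein-coding genes (triangles). KO 3 is lowest in both panels, at 2.48% and -0.996.

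Most of the genes were lower on average in KO. Of 84 tested members 72 had a log2 fold change below 0 and 12 above, with a median of -0.40, whereas 51.5% of all tested genes lay below 0, with a median of -0.01. Large subunit genes had a median of -0.36, with 43 of 51 below 0, and small subunit genes a median of -0.43, with 29 of 33 below 0. Without KO 3 these medians were -0.22 for large and -0.20 for small subunit genes. By library, the median member differed from its Flox mean by -0.32, -0.12, -0.996 and -0.14 (log2) in KO 1 to 4, and by -0.19, -0.02, 0.09 and 0.11 in Flox 1 to 4. KO 1, KO 2 and KO 4 thus lay within 0.32 of the Flox mean, and Flox 1 lay below KO 2 and KO 4. Without KO 3 the median log2 fold change was -0.20, with 62 members below 0, against 51.3% of all genes.

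No single member passed the test across all genes. With limma-trend on log2 of the normalized count plus 1 and Benjamini-Hochberg adjustment over 13091 genes, 0 of 84 members had an adjusted p under 0.05, against 0.0687% of all genes (0.0153% lower and 0.0535% higher in KO). The smallest adjusted p was 0.238. At an unadjusted p under 0.05, 35 members were lower and 1 was higher in KO, 41.7% and 1.19% of them, against 7.39% and 7.74% of all tested genes. edgeR called 0 members, against 0.0687% of all genes (0.0153% lower and 0.0535% higher). At an unadjusted p under 0.05 it had 31 members lower and 2 higher, against 6.13% and 8.82% of all genes. limma-voom called 0 members, against 0.0764% of all genes (0.0229% lower), with 34 lower and 1 higher at an unadjusted p under 0.05, against 6.75% and 7.87%. DESeq2 called 1 member as lower, Rpl9, with an adjusted p of 0.0122, where it called 1.76% of all genes, 0.563% lower and 1.2% higher. The authors' deposited table also gave Rpl9 an FDR under 0.05 (0.0142), as the only one of the 62 members with an FDR there, against 1.58% of all its genes and 0.487% as lower. Leaving out single libraries moved the count of 35 by over 1.5 times in 3 cases, to 22 without KO 1 (5.13% of all genes), 21 without Flox 3 (3.28%) and 23 without Flox 4 (4.04%), and leaving out KO 1 and KO 3 together gave 11 (3.48%). The count of 1 higher became 5 without KO 3 (6.31% of all genes). It was 4 without KO 4, 3 without Flox 4, and 0 without any one of KO 1, KO 2, Flox 1 and Flox 3. For these other fits the share of all genes higher in KO is not given here.

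Short genes other than these also tended to be lower in KO. Of 1099 other tested protein-coding genes with a span of at most 4681 nt, the third quartile of the members' spans, 73.4% had a log2 fold change below 0, and their median was -0.14. In KO 3 the median of these short genes was -0.40 and that of all other protein-coding genes 0.01. Without KO 3 the short genes had a median of -0.05. When a trend on gene span and GC content was removed within each library, the members had a median of -0.30, with 31 lower and 5 higher at an unadjusted p under 0.05 (8.1% and 7.48% of all genes), and the other short genes had a median of -0.02. With the same correction and without KO 3 the members had a median of -0.15 and the other short genes 0.0039.

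**Figure D2:**
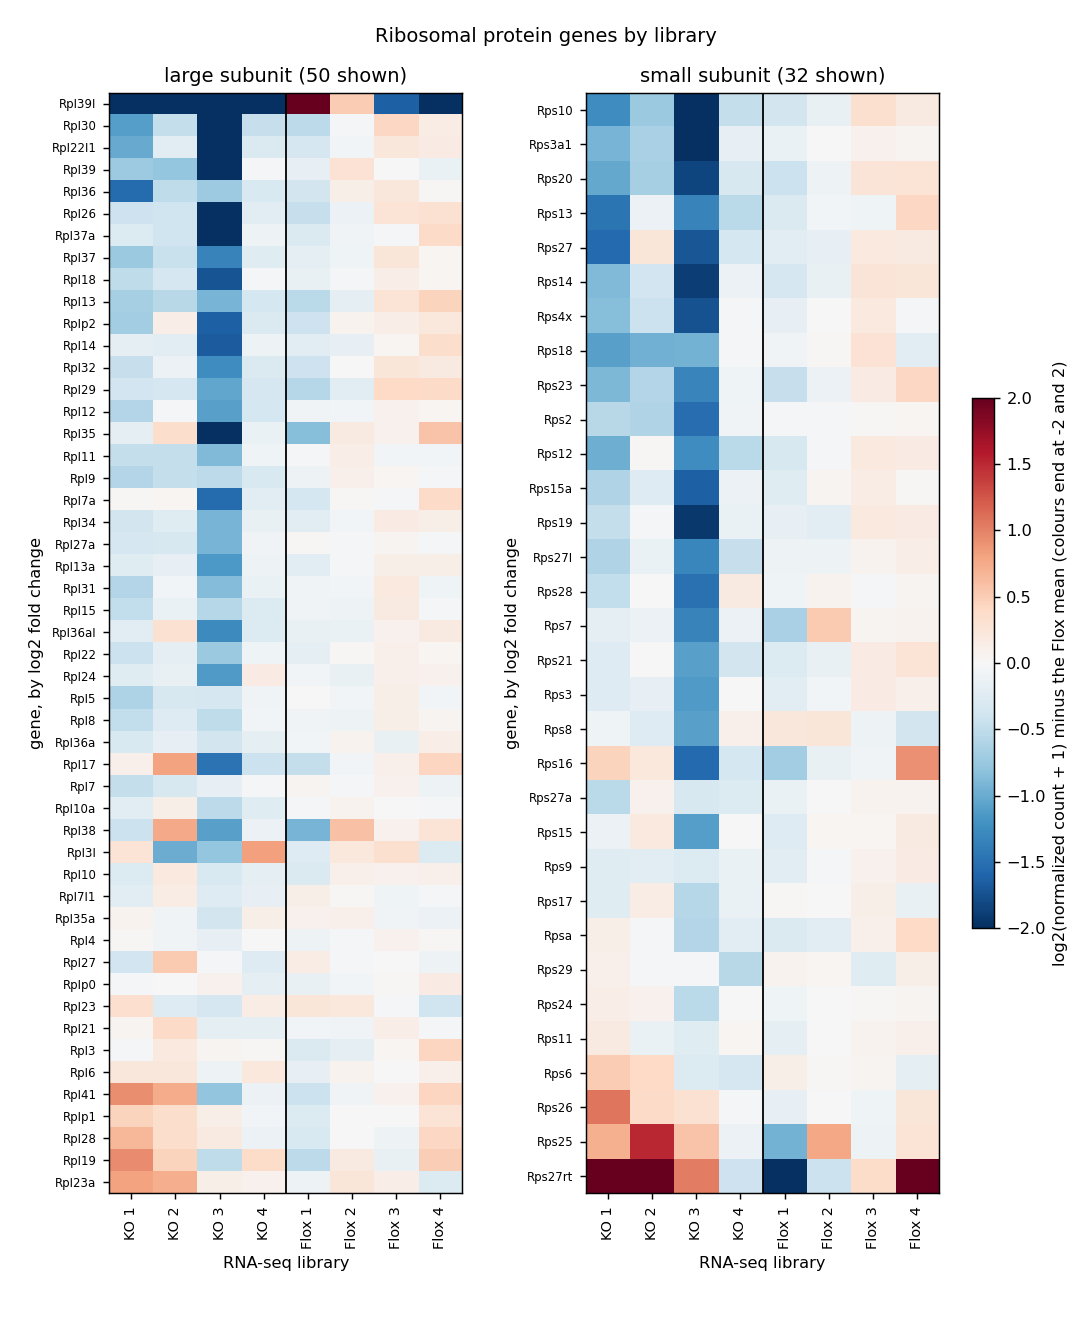
Log2 of the normalized count plus 1, minus the mean of the 4 Flox libraries, for 50 large subunit (left) and 32 small subunit (right) genes in rows and the 8 libraries in columns, KO left of Flox. Rows run by the log2 fold change from low to high, and colours end at -2 and 2. The column of KO 3 is the bluest, and Rpl39l and Rps27rt show the largest differences among Flox libraries.

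The smallest p-value belonged to Rpl9, which codes for a protein of the large subunit and lies at chr5:65388364-65391444 on the minus strand (GRCm38). Its normalized counts were 369.9, 400.3, 387.3 and 450.2 in KO 1 to 4, against 520.7, 595.9, 569.7 and 540.3 in Flox 1 to 4. Every KO library lay below every Flox library, and KO 3 was not the lowest. The log2 fold change was -0.47 (SE 0.11), with a limma-trend adjusted p of 0.238, and it was -0.45 without KO 3. With single libraries left out its limma adjusted p ran from 0.0945 to 0.632.

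Rps18, a protein of the head of the small subunit whose gene lies at chr17:33951999-33956001 on the minus strand, separated 3 KO libraries from the rest. It had 2782, 3037, 3070 and 5813 normalized counts in KO 1 to 4, against 5644, 6008, 7250 and 5056 in Flox 1 to 4. KO 4 lay among the Flox values, while the other KO libraries stood below all of them. The log2 fold change was -0.76 (SE 0.21, limma-trend adjusted p 0.239). Without KO 4 it was -1.004, and limma-trend then gave Rps18 an adjusted p of 0.0114, as the only member that limma-trend called with a single library left out. In that fit 0.107% of all genes were called, 0.0611% as lower and 0.0458% as higher.

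Rps10 and Rps20 sit near each other on the small subunit and are both marked with ubiquitin when ribosomes collide, as known from human cells. Rps10 had 3347, 4764, 1110 and 5682 normalized counts in KO 1 to 4, against 6150, 7166, 9943 and 9027 in Flox 1 to 4. Its groups did not overlap, and its log2 fold change of -1.32 (SE 0.41, limma-trend adjusted p 0.244) was -0.82 without KO 3. Rps20 had 8456, 10817, 4803 and 13728 normalized counts in KO 1 to 4, against 12681, 15961, 20530 and 20653 in Flox 1 to 4. KO 4 lay above Flox 1 here, and the log2 fold change was -0.96 (SE 0.28, limma-trend adjusted p 0.239), or -0.67 without KO 3.

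Rpl37 and Rpl30, both of the large subunit, completed the 6 members with the most negative test statistic. Rpl37 had 6499, 8020, 4308 and 9275 normalized counts in KO 1 to 4, against 9600, 10312, 12857 and 11160 in Flox 1 to 4, again without overlap, and its log2 fold change was -0.69 (SE 0.20, limma-trend adjusted p 0.239), or -0.48 without KO 3. Rpl30 had 2849, 4366, 1478 and 4458 in KO 1 to 4, against 4248, 5972, 8106 and 6749 in Flox 1 to 4, with KO 2 and KO 4 above Flox 1. Its log2 fold change was -1.02 (SE 0.32, limma-trend adjusted p 0.244), or -0.68 without KO 3.

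In all, 11 members had every KO library below every Flox library and 0 had every KO library above, against 3.79% and 4.18% of all tested genes. They were Rps10, Rps3a1, Rpl37, Rps2, Rps27l, Rpl11, Rpl9, Rpl27a, Rpl15, Rpl5 and Rpl36a, with log2 fold changes of -1.32 to -0.26, and of -0.82 to -0.22 without KO 3. Rpl5 and Rpl11 form, with 5S ribosomal RNA, the particle that can bind Mdm2 when ribosome assembly is disturbed. Rpl5 had 616.2, 755.1, 746.9 and 904.9 normalized counts in KO 1 to 4, against 943.7, 910.1, 1028.2 and 910.2 in Flox 1 to 4, so that KO 4 lay close under the lowest Flox library. Rpl11 had 303.4, 305.2, 228.9 and 399.4 in KO 1 to 4, against 418.5, 463.3, 407.6 and 406.0 in Flox 1 to 4, with the same narrow gap at KO 4. Several of these gaps were narrow, for example 213.9 in the highest KO against 215.4 in the lowest Flox library for Rpl36a. The number without overlap was 12 lower and 1 higher (Rpl6) without KO 3, where 5.06% and 5.16% of all genes did not overlap. It was 20 lower without KO 2 (8.94% of all genes), 27 lower and 1 higher without KO 4 (8.48% and 8.75%), and 30 lower without Flox 1 (7.94%).

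**Figure D3:**
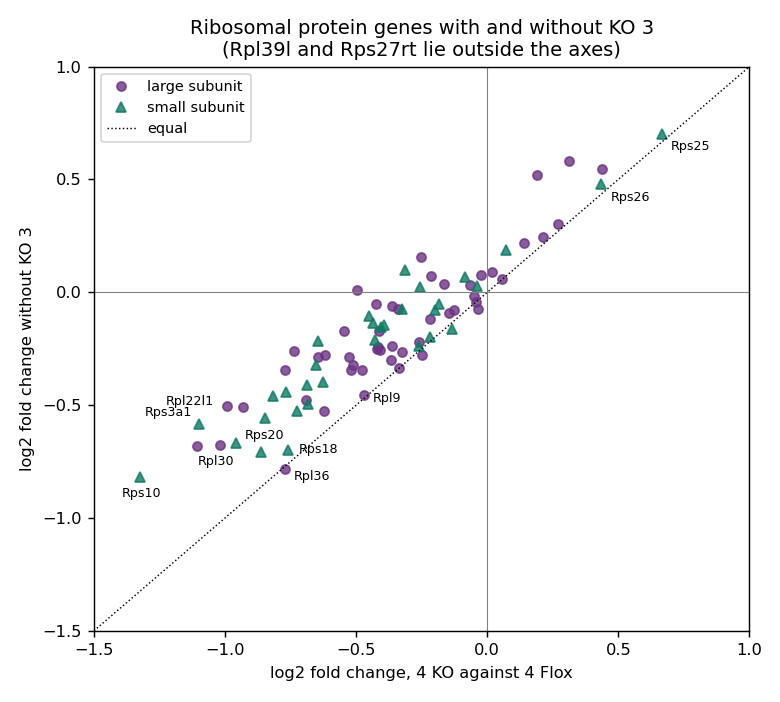
Log2 fold change of the tested ribosomal protein genes over all 8 libraries (x axis) and without KO 3 (y axis), for the large (circles) and small (triangles) subunit. Most points left of 0 lie above the line of equality, and Rpl9, Rpl36 and Rps18 lie near it. The median is -0.40 on the x axis and -0.20 on the y axis.

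After KO 3 was left out, limma-trend and edgeR called 0 members, where each called 0.0611% of all genes. At an unadjusted p under 0.05 limma-trend had 28 members lower and 5 higher, against 6.0% and 6.31% of all genes, and edgeR 29 lower and 6 higher, against 4.89% and 7.22%. DESeq2 called 5 members, all lower. Of these, 4 are named here, with DESeq2 adjusted p-values of 0.00487 for Rps10, 0.042 for Rps20, 0.0457 for Rpl9 and 0.0497 for Rps3a1. In the same DESeq2 fit 0.726% of all genes were called, 0.351% as lower and 0.374% as higher. The limma-trend adjusted p of each of these 4 genes was 0.353 in the fit without KO 3. Rps3a1, a protein at the mRNA exit side of the small subunit, had 3279, 3987, 995.5 and 5607 normalized counts in KO 1 to 4, against 5689, 6232, 6667 and 6518 in Flox 1 to 4. KO 4 lay closest to the Flox libraries and KO 3 farthest from them.

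At the other end of the list stood Rps26, a small subunit protein that contacts the mRNA upstream of the start codon. Its normalized counts were 38488, 23986, 22741 and 18182 in KO 1 to 4, against 16463, 18410, 17240 and 21852 in Flox 1 to 4. KO 1 was the highest library, and KO 4 lay below Flox 2. The log2 fold change was 0.44 (SE 0.19, unadjusted p 0.0447, limma-trend adjusted p 0.323), and it was 0.22 without KO 1. Rps25, which ribosomes need at several viral internal entry sites, had 1392, 2414, 1257 and 787.5 normalized counts in KO 1 to 4, against 443.3, 1449, 790.8 and 1028 in Flox 1 to 4. The groups overlapped widely, and its log2 fold change of 0.67 (SE 0.37, limma-trend adjusted p 0.392) was 0.39 without KO 2 and 0.35 without Flox 1. The remaining members with the most positive statistics were Rpl23a (0.44), Rpl28 (0.27) and Rplp1 (0.21), beside Rps27rt, described with the retrocopies, and none had an adjusted p under 0.35. Rpl28 was 0.14 without KO 1, 0.17 without Flox 1 and 0.41 without Flox 4, and Rplp1 was 0.13 without KO 1 and 0.12 without Flox 1.

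The stalk proteins, which recruit the elongation factors to the large subunit, differed in their values. Rplp0 had a log2 fold change of -0.03 (SE 0.10), or -0.07 without KO 3, Rplp1 of 0.21 (SE 0.14) and Rplp2 of -0.62 (SE 0.30), or -0.28 without KO 3. Rplp0 turned to 0.02 without KO 4 and without Flox 4. Rplp1 had 74486, 69892, 59230 and 52685 normalized counts in KO 1 to 4, against 45138, 54942, 55095 and 66097 in Flox 1 to 4. Rplp2 had 12651, 22365, 6575 and 16715 in KO 1 to 4, against 15358, 21340, 22422 and 23478 in Flox 1 to 4, with KO 3 lowest. Differences between these 3 genes were not tested.

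Rpl4, Rps3, Rpl13a and Rpl8 were among the members with the most reads. Rpl4, which lines the tunnel through which the new protein leaves, had 148073, 138925, 130365 and 144308 normalized counts in KO 1 to 4, against 135668, 143800, 155043 and 147945 in Flox 1 to 4, with a log2 fold change of -0.05 (SE 0.10), or -0.02 without KO 3. Rps3, at the mRNA entry channel, had 95103, 101038, 51523 and 112735 in KO 1 to 4, against 96770, 109541, 127778 and 122343 in Flox 1 to 4, with a log2 fold change of -0.39 (SE 0.22), or -0.14 without KO 3. The groups overlapped in both, and KO 3 was the lowest library in both. Rpl13a had a log2 fold change of -0.41, or -0.17 without KO 3, and Rpl8, a protein at the peptidyl transferase centre, gave -0.32.

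The spread between libraries was wide in these genes. The coefficient of variation of a member had a median of 30.8% over the 4 KO libraries, 17.8% over KO libraries without KO 3, and 12.8% over the 4 Flox libraries. Over all tested genes the medians were 15.5%, 12.6% and 9.45% in the same order.

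Genes with a paralogue allow a ratio within each library, which at high counts depends little on the size factor. Since 1 was added to both normalized counts, ratios with a low count still depend on it in part. Rpl22l1 can take the place of Rpl22 in the large subunit. Rpl22l1 had 1745, 2985, 637.1 and 2877 normalized counts in KO 1 to 4, against 2778, 3386, 4089 and 3907 in Flox 1 to 4. Its log2 ratio to Rpl22 was -3.13, -2.59, -4.28 and -2.76 in KO 1 to 4, against -2.71, -2.64, -2.44 and -2.45 in Flox 1 to 4. The ratio was lower in KO by a mean of 0.63 on the log2 scale, with KO 3 lowest and KO 2 above Flox 1 and Flox 2, and an exact permutation test gave p = 0.0857 (two-sided, adjusted p 0.3 over 7 ratios). Without KO 3 the ratio was lower by 0.27. The smallest p that 4 against 4 libraries allow is 0.0286, so a single ratio could not have an adjusted p under 0.2, and no call was possible for 1 ratio alone. The mean KO minus Flox difference was 0.12 for Rpl7l1 to Rpl7 (0.0087 without KO 2), -0.11 for Rpl36al to Rpl36a, -0.22 for Rpl3l to Rpl3 and 0.22 for Rps27l to Rps27. The sign of the Rpl36al ratio turned without KO 3 (0.16), that of the Rpl3l ratio without KO 2 (0.10), and that of the Rps27l ratio without KO 1 (-0.03).

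Rpl39l is an autosomal relative of the X-linked exit tunnel protein Rpl39 and is known in the mouse from male germ cells. It had 1.1, 0.0, 8.1 and 1.5 normalized counts in KO 1 to 4, against 960.9, 59.3, 12.7 and 3.1 in Flox 1 to 4. Flox 1 alone held most of its reads, and KO 3 lay above Flox 4. Its log2 fold change of -4.01 (SE 1.38, limma-trend adjusted p 0.258) was the most negative of all tested genes and was -2.51 without Flox 1. The log2 ratio of Rpl39l to Rpl39 differed by a mean of -3.08 between KO and Flox libraries (exact permutation p = 0.171, adjusted p 0.4), and by -1.53 without Flox 1. Rpl3l, the striated muscle relative of Rpl3, had a mean of 16.7 normalized counts over all libraries, and Rpl10l, a retrocopy of Rpl10 used in the mouse testis, had 0 reads in each of the 8 libraries. A count of 0 allows up to 3 reads per library, and Rpl10l was not tested.

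Rps27rt, an intronless copy of Rps27 annotated as protein-coding at chr9:114982366-114982739 on the minus strand, had the most positive log2 fold change of the list. Its normalized counts were 1716, 742.0, 153.8 and 56.1 in KO 1 to 4, against 17.3, 55.8, 97.3 and 328.5 in Flox 1 to 4. KO 1, KO 2 and Flox 4 were highest, and Flox 1 was lowest, so the order of libraries cut across the genotypes. The log2 fold change was 2.10 (SE 1.04, limma-trend adjusted p 0.359), and 1.30 without KO 1. The log2 ratio of Rps27rt to Rps27 differed by 2.94 between KO and Flox libraries (exact permutation p = 0.0857, adjusted p 0.3), and by 1.91 without KO 1.

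The same 3 libraries were highest in part of the annotated ribosomal protein pseudogenes. Rpl31-ps8 had 3096, 1711, 163.0 and 147.8 normalized counts in KO 1 to 4, against 65.4, 173.6, 220.0 and 756.2 in Flox 1 to 4. Rpl39-ps had 2461, 952.0, 215.1 and 102.3 in KO 1 to 4, against 41.3, 103.0, 260.5 and 680.8 in Flox 1 to 4, and Rpl28-ps1 had 1746, 922.0, 113.3 and 66.7 in KO 1 to 4, against 24.0, 72.4, 211.9 and 617.8 in Flox 1 to 4. KO 1, KO 2 and Flox 4 were the 3 highest libraries in 15 of 34 tested pseudogene rows (44.1%) and in 11 of the 13 with a mean of at least 50, against 9 of 84 tested members (10.7%) and 3.12% of all tested genes. These 3 libraries were picked from the same values, and a row low elsewhere can reach either mean limit through them. The counts are therefore a description and not a test. The 9 members were Rps27rt, Rpl17, Rpl19, Rpl28, Rpl41, Rpl7a, Rplp1, Rps16 and Rps24. The 3 libraries are of both genotypes, and none of the 34 rows passed the limma-trend threshold. Of the 34 rows 18 were below 0 and 16 above, with a median log2 fold change of -0.43, or -0.05 without KO 3. At an unadjusted p under 0.05 in limma-trend 9 were lower and 0 higher, against 7.39% and 7.74% of all tested genes. KO 3 was the lowest library in 13 of the rows (38.2%), against 26.1% of all tested genes. All 252 pseudogene rows together took 0.0458, 0.0252, 0.0062 and 0.0067% of reads in KO 1 to 4, against 0.0044, 0.0072, 0.0096 and 0.0179% in Flox 1 to 4. Reads of a retrocopy and of its parent gene can be assigned to either, and how reads matching several places were handled is not given in the sources used here, so the values of members with close copies are uncertain. Adding the pseudogene rows moved the share of ribosomal protein reads to 3.46% in KO and 4.20% in Flox libraries.

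**Figure D4:**
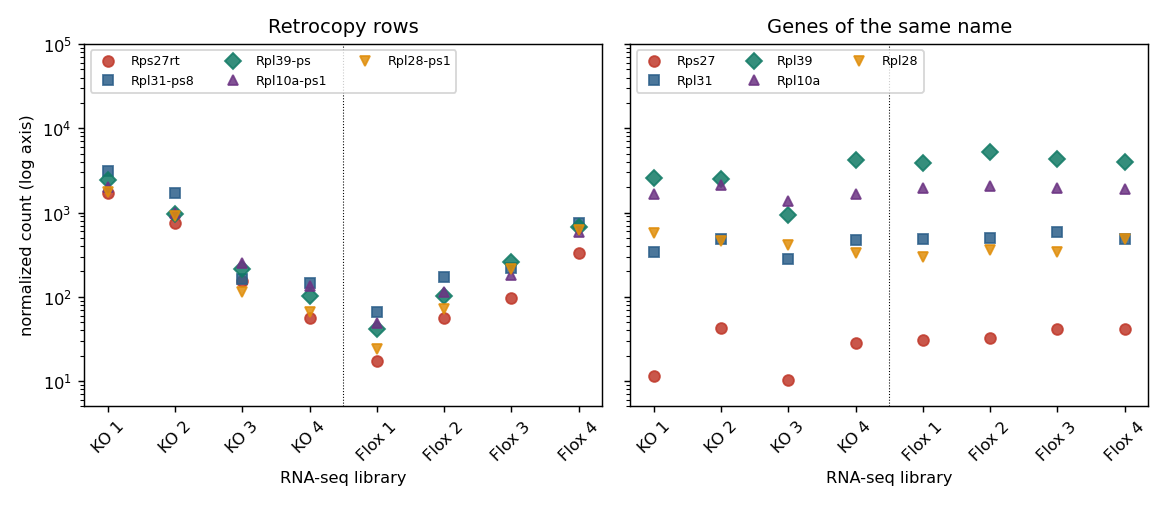
Normalized counts (log axis) of 5 retrocopy rows (left) and of the genes they are named for (right) in each RNA-seq library. The copies are highest in KO 1, KO 2 and Flox 4 and lowest in Flox 1. Among the genes at right only Rpl28 has the same 3 highest libraries.

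Some general ribosomal protein genes had few assigned reads. A mean of under 100 normalized counts was found for 7 tested members, Rpl3l, Rpl24, Rps27, Rps13, Rps29, Rpl38 and Rpl23a. Rps27 had 11.6, 43.0, 10.4 and 28.0 normalized counts in KO 1 to 4, against 30.8, 32.3, 41.7 and 41.3 in Flox 1 to 4, and Rpl24 had 24.3, 26.1, 12.7 and 32.6 in KO 1 to 4, against 27.8, 26.2, 31.3 and 31.0 in Flox 1 to 4. In both genes KO 3 was lowest. Both proteins belong to the ordinary ribosome, so these counts are given as assigned reads and not as transcript levels. Ago2 CLIP regions covered 49.1% of the span of Rps27 and 32.1% of that of Rpl24, and the part of copies in this coverage was not tested.

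TOP tracts were looked for around the transcription start, as the feature that ribosomal protein mRNAs are known for. A tract was defined as a C followed by at least 4 pyrimidines on the transcript strand, with no other motif searched and the opposite strand not searched. RefSeq start windows (GRCm38.p6) were found for 65 of 85 members. A tract began exactly at the annotated start in 14 of them (21.5%), against 3.01% of 27025 genes with a window, and within 5 bases of it in 30 (46.2%), against 21.2%. The windows below cover 15 bases on each side of the start, with the tract in capitals. Shown are members with lower and with higher values in KO, as well as a gene and its retrocopy. How common the tract is cannot be read from these windows. They are Rps10 (chr17:27635230-27635259, minus strand), Rps18 (chr17:33955651-33955680, minus), Rpl15 (chr14:18270972-18271001, minus), Rpl9 (chr5:65391417-65391446, minus), Rps26 (chr10:128626492-128626521, minus), Rps27 (chr3:90213634-90213663, minus) and Rps27rt (chr9:114982725-114982754, minus).
Rps10: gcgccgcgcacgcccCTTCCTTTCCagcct
Rps18: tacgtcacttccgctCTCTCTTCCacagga
Rpl15: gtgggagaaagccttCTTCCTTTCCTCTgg
Rpl9: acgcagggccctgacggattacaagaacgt
Rps26: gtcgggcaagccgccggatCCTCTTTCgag
Rps27: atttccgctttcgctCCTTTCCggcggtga
Rps27rt: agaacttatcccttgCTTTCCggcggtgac
Rps10, Rps18 and Rpl15 begin with a tract at the annotated start, Rps26 has one 4 bases further on, and the window of Rpl9 holds none within the allowed shift. The median log2 fold change was -0.43 for the 30 members with a tract within 5 bases and -0.35 for the 34 tested members with a window but no such tract, and without KO 3 -0.25 and -0.13 in the same order. The presence of these letters in a window does not show where transcription began in these cells.

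Related genes outside the naming rule varied among themselves. Rack1, the scaffold on the small subunit, had 89687, 96672, 69507 and 102134 normalized counts in KO 1 to 4, against 93313, 110340, 123405 and 129613 in Flox 1 to 4, a log2 fold change of -0.36 (SE 0.15, limma-trend adjusted p 0.304). Fau, which codes for a ribosomal protein fused to a ubiquitin-like protein, had a log2 fold change of 0.18 (SE 0.25), or 0.32 without KO 3 and 0.01 without KO 2. Rps19bp1, a binding partner of Rps19 and not itself a ribosomal protein, had -0.13 (SE 0.19), and its sign turned without KO 3 (0.09).

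Of 22 other genes known for TOP mRNAs, mostly translation factors, 14 were below 0 and 8 above, with a median of -0.12, and -0.05 without KO 3. At an unadjusted p under 0.05, 7 were lower and 1 higher, against 7.39% and 7.74% of all tested genes. Vim, the intermediate filament vimentin, had 13697, 13852, 12197 and 16086 normalized counts in KO 1 to 4, against 20635, 19842, 19384 and 20186 in Flox 1 to 4, with no overlap. Its log2 fold change was -0.53 (SE 0.09, limma-trend adjusted p 0.122). Npm1, a nucleolar chaperone, gave -0.43 (SE 0.13) and Btf3, a subunit of the nascent chain complex, -0.43 (SE 0.14). Of 22 further initiation factors 12 were below 0, with a median of -0.01, among them Eif1, a start codon selection factor, at -0.52 (SE 0.13) and Eif4g3, a scaffold of the cap complex, at 0.32 (SE 0.10). None of these genes passed the adjusted threshold.

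Of 21 regulators of TOP mRNAs and of mTOR 7 were below 0, against 51.5% of all tested genes, with a median of 0.12, or 0.06 without KO 3. At an unadjusted p under 0.05, 5 were higher and 1 lower, against 7.74% and 7.39% of all tested genes, and the difference from other lists was not tested. The median gene span of this list was 39802 nt, against 20039 nt over all tested genes. After the span and GC correction its median log2 fold change was 0.06. Larp1, the TOP-binding repressor, had 12185, 12703, 11856 and 11396 normalized counts in KO 1 to 4, against 11609, 10972, 9364 and 9447 in Flox 1 to 4, a log2 fold change of 0.22 (SE 0.09, limma-trend adjusted p 0.298). Myc, which drives ribosome production, had 10288, 8084, 11626 and 7029 in KO 1 to 4, against 8090, 7672, 6912 and 7273 in Flox 1 to 4, a log2 fold change of 0.28 (SE 0.14, limma-trend adjusted p 0.363), or 0.16 without KO 3, its highest library. The groups overlapped in both genes. Ddit4, an inhibitor of mTOR, gave -0.46 (SE 0.12), Eif4ebp2, a repressor of cap-dependent initiation, 0.44 (SE 0.14) and Tsc2, another brake on mTOR, 0.30 (SE 0.11).

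RNA polymerase I subunits and ribosome assembly factors were balanced, with 19 of 40 below 0 and a median of 0.02. Polr1c, shared by polymerases I and III, gave -0.30 (SE 0.10), Polr1a, the largest subunit of polymerase I, 0.29 (SE 0.13) and Mrto4, an assembly factor of the stalk, -0.41 (SE 0.18), or -0.22 without KO 3. Of 13 genes of the p53 response 7 were below 0, with a median of -0.02, and Pmaip1, Phlda3 and Bbc3 had log2 fold changes of -0.50 (SE 0.14), -0.44 (SE 0.15) and -0.35 (SE 0.12), where Phlda3 was -0.28 without KO 3. Of 11 genes that handle stalled ribosomes 6 were below 0, with a median of -0.03, and Eif2ak4, the kinase Gcn2, gave 0.20 (SE 0.09). No member of these lists passed the adjusted threshold.

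Genes of the mitochondrial ribosome, the respiratory chain and the proteasome also lay mostly below 0, with median gene spans of 7899.5, 6969 and 16620 nt, against 20039 nt over all tested genes. Of 76 mitochondrial ribosomal protein genes 60 were below 0, with a median of -0.17, and -0.03 without KO 3. For 24 nuclear genes of respiratory complexes IV and V, 19 were below 0, with a median of -0.21, and -0.04 without KO 3. The 14 core proteasome genes had 12 below 0, with a median of -0.11, and -0.07 without KO 3. Mrpl45, of the mitochondrial large subunit, had the smallest p of the mitochondrial list, with a log2 fold change of -0.29 (SE 0.08, limma-trend adjusted p 0.239). Mrpl27, of the same subunit, gave -0.72 (SE 0.22), or -0.45 without KO 3, Atp5j, a coupling factor of ATP synthase, -0.31 (SE 0.10) and Psma5, a ring subunit of the proteasome, -0.27 (SE 0.11). The members' own medians of -0.40 and -0.20 were lower than these in both fits, and the difference between lists was not tested.

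Ago2 HITS-CLIP sequences the RNA fragments found crosslinked to Ago2, the protein in which a miRNA meets its target. The deposited output compares a pair of pooled conditions in 5-nt bins and does not name which is KO, so CLIP values here have no error, no test and no direction by genotype. Members held 1910 regions on their own strand, covering 131915 nt, and 32 regions on the opposite strand, covering 1745 nt. All members except Rpl10l had a region, 84 of 85. A median of 43.9% of a member's span lay in regions, against 20.6% for 1169 other tested genes that code for proteins, average 1000 normalized counts or more and span up to 10000 nt, and 6.08% for all other tested protein-coding genes. With only regions of a score of at least 5 the median of the members was 8.81%. The gene sets were not matched on span, and exons and introns were not told apart here. Regions within 100 nt of the annotated 3′ end, where many miRNA sites lie, made up 5.60% in members and 5.87% in those other short genes with high counts. Regions in the last 20% of the span made up 24.1% in members and 34.7% in those other genes. Regions in the first 20% of the span made up 17.96% in members and 14.67% in those other genes.

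Each region carries 1 of 3 states, whose meaning the file headers do not give. State 0 had mean differences of -0.57 to -0.14, state 2 of 0.17 to 0.54, and state 1 of -0.19 to 0.22. Members had 597 regions in state 0, 1107 in state 1 and 206 in state 2, or 31.3, 58.0 and 10.8% of regions. In the other tested protein-coding genes the percentages were 31.2, 59.0 and 9.81. The states of all member regions pooled were thus distributed much as elsewhere. Member regions in snoRNA genes differed, with 3.39% in state 0 and 35.6% in state 2. Member regions outside snoRNA genes had 33.1% in state 0 and 9.15% in state 2. No value here assigns the states to KO or Flox.

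Most of the highest-scoring regions lay in snoRNA genes hosted by the members. snoRNA genes lie inside 30 members, 58 in all, and each of the 30 had a region in one. Such regions were 6.18% of the members' regions, against 0.419% in the other short genes with high counts. The highest deposited scores were 219.9 in Rpl37 at Snord72 (chr15:5118405-5118459), 202.7 in Rpl13a at Snord35a (chr7:45126385-45126439), 195.2 in Rps3a1 at Rnu73b (chr3:86140640-86140689) and 184.1 in Rpl4 at Gm22455 (chr9:64177125-64177179). A region of Rpl3 with a score of 177.8 (chr15:80082875-80082914) lay in no annotated snoRNA gene. All 5 were in state 2. Of 23 regions with a score of at least 100, 17 lay in a snoRNA gene (73.9%) and 21 were in state 2, and of 448 regions with a score of at least 5, 44 lay in one (9.82%).

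Outside snoRNA genes, the highest state 0 score was 143.2, in Rps27l, the p53-inducible relative of Rps27, at chr9:66949335-66949379, 159 nt before the annotated 3′ end and with a mean difference of -0.26. Rpl32 had a region of score 141.6 in state 2, 59 nt before its 3′ end (chr6:115805550-115805579). Both lie in the last part of the gene, and whether they hold a match to the seed of miR-221 and miR-222 was not analysed here. Without snoRNA regions 1792 regions remained, in 84 members.

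**Figure D5:**
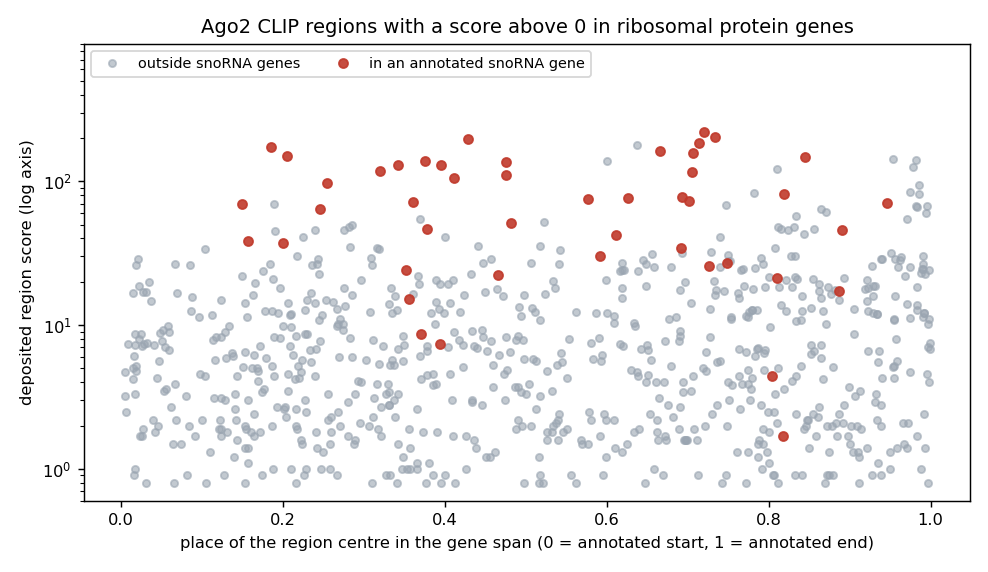
Place of each Ago2 CLIP region with a score above 0 along its ribosomal protein gene (x axis, 0 = annotated start, 1 = annotated end) and its deposited score (y axis, log scale), for regions in snoRNA genes (red) and elsewhere (grey). Of the 803 regions 46 lie in snoRNA genes, and these make up 17 of the 23 with a score of at least 100.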

How the data were processed

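RNA-seq values are normalized counts, a signal the authors made by dividing each gene's count by a size factor per library. The deposited table also holds the authors' log2 fold changes, fold ratio, p-values with FDR and GC percent. The deposited CLIP files give a difference score, a region score and a state (other) per the file headers, and 4 tag and mutation columns were not used. The submitters' processing notes name cutadapt, Bowtie2, SAMtools, STAR, DESeq and DESeq2, without versions, and mm9, although the positions are those of GRCm38. Whole reads came back from 100% of checked values within 0.1 read. limma-trend (3.58.1, R 4.3.3) was run on log2 of the value plus 1 for 13091 genes with a mean of at least 10, with Benjamini-Hochberg adjustment, as a two-sided test and with no replicate block. Alternatives were edgeR 4.0.16, DESeq2 1.42.0 and limma-voom on the whole reads, TMM or size factors without ribosomal protein genes, another pseudocount (10), no or a stricter filter (1 CPM and 50 reads), a spline trend (4 degrees of freedom) on span and GC content, the replicate block and left-out libraries. The fits were tested on simulated counts. CLIP bins were joined into regions and given to genes on the same strand. Regions without a chromosome placement or below position 3000000 (616) were left out. The error given is the spread between libraries, which includes counting error. Named genes were the members with the most extreme test statistics (6 at each end), the most reads (5), a paralogue, the highest CLIP score (5) or an adjusted p under 0.05, and up to 3 genes per other list by p. Rplp0, Rplp2 and the genes without overlap were named after their values were seen. Some genes are counted but not reported here by name or shown as rows. The members and lists were chosen with earlier results of these data known.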

Additional observations from a re-analysis of the deposited data

Results flagged for a closer look

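In 92 groups of 4 libraries the library farthest from its neighbours was compared with the whole range of the group, using Dixon's 95% critical value. Chance alone passes this limit in about 1 of 20 groups, and 5 of the 92 passed. KO 4 stood apart in Rps18, with 5813 normalized counts against 2782, 3037 and 3070 in KO 1 to 3. KO 3 stood apart in the ratio of large to small subunit reads, at 1.95. Among Flox libraries, Flox 1 stood apart in Rpl10, with 979.7 normalized counts against 1273, 1266 and 1281 in Flox 2 to 4, and in Rpl39l, with 960.9 against 59.3, 12.7 and 3.1. Flox 3 stood apart in the log2 ratio of Rpl7l1 to Rpl7, at -2.68 against -2.44, -2.46 and -2.46 in Flox 1, Flox 2 and Flox 4.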

How the results depend on the processing

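Of 756 values of the 33 named members under 23 alternatives, 733 kept direction and side of the threshold, 6 passed it anew and 17 turned sign. Members called lower numbered 0 to 1 with single libraries left out, 1 by DESeq2 and 5 by DESeq2 without KO 3. Lower members at an unadjusted p under 0.05 numbered 21 to 44 with single libraries left out and 11 without KO 1 and KO 3. Higher ones numbered 0 to 5 with single libraries left out, 2 without a filter, by edgeR and by DESeq2, 5 after the span and GC correction with or without the block, and, without KO 3, 7 after that correction, 4 by DESeq2 and 6 by edgeR. The share of all genes higher was 8.82% by edgeR, 7.22% by edgeR without KO 3, and 7.48% after the correction without the block. Members without overlap numbered 11 to 30 lower and 0 to 1 higher with single libraries left out, and 1 higher without KO 1 and KO 3. Where no share of all genes is printed here or above for a fit, it is not given, and its count cannot be set against all genes. The median log2 fold change ran from -0.49 to -0.20 with single libraries left out and was -0.13 without KO 1 and KO 3. A CLIP score of at least 5 kept 448 regions. Whether replicate numbers pair the samples is not given. In deviations from their group means, same-numbered KO and Flox libraries correlated at -0.09, -0.06, -0.05 and 0.00, and differently numbered ones at -0.16 to 0.22. These values cannot decide on pairing, since centring within groups of 4 holds them near 0 on average. With the replicate block 0 members were called, and their median log2 fold change was -0.40. The share of all genes called in that fit is not given here.

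Signs turned for 5 named members and 3 ratios. The log2 fold change of Rpl4 turned after the span and GC correction (0.014, also with the replicate block, and 0.034 without KO 3). That of Rpl3l turned by edgeR (0.055), by DESeq2 (0.032) and without KO 3 after the correction (0.068), by DESeq2 (0.23) and by edgeR (0.25), and ran from -0.49 to 0.11 with single libraries left out. With single libraries left out Rpl21 ran from -0.10 to 0.088 and Rpl3 from -0.040 to 0.20. Rpl36al turned without KO 1 and KO 3 (0.013) and after the correction without KO 3 (0.0006). The ratio of Rps27l to Rps27 turned with a pseudocount of 10 (-0.033) and ran from -0.029 to 0.42 with single libraries left out, that of Rpl3l to Rpl3 from -0.56 to 0.10, and that of Rpl36al to Rpl36a from -0.29 to 0.16. The cause was not tested in any of these. Precision was low for members with few reads in some libraries, such as Rpl39l (SE 1.38).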
